A study of Mus musculus with 3 samples.

Results

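Immediate early and heat shock genes, a group of 41 stress-responsive genes, were examined in endothelial cells sorted from the embryonic mouse kidney. The members are a list of named genes, chosen by function, of AP-1 genes (8), EGR genes (3), other early response genes (18) and chaperones (12). A member was measured if at least 1 probe set of the array was annotated with its symbol and no other. This held for 39 of 41 members, out of 19938 genes named in the same way. Hspa1b and Hsp90ab1 had no probe set of their own and were not analysed here.

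The series holds 1 group of 3 arrays. Kidneys at embryonic day 15.5 came from CD-1 mice carrying Tg(TIE2GFP)287Sato, in which the Tie2 (Tek) promoter drives green fluorescent protein, so that the sort keeps every cell in which this promoter is active or its GFP persists, whether endothelial or not. Each array was hybridized with amplified RNA from a pool of 4 to 5 kidneys. The kidneys were held in trypsin at 37 °C for 5 minutes, dissociated by trituration and sorted in the cold. No undissociated kidney was measured, so RNA present in the tissue and RNA made during dissociation cannot be told apart in any value below. Separate litters are not stated for the pools, so the spread that a p-value rests on here may be technical.

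Immediate early genes are transcribed within minutes of a stimulus without new protein synthesis. Growth factor and stress signals reach them through MAP kinases that act on serum response factor and its ETS partners and on CREB, and many of their products, such as Fos, Jun and Egr1, are transcription factors that carry the signal on. Their RNAs are short-lived and are cut back by feedback proteins such as the phosphatase Dusp1 and the RNA-destabilizing protein Zfp36. Heat shock genes are activated by Hsf1 when unfolded protein accumulates, whereas family members such as Hspa8 are made at all times for routine folding. Enzymatic dissociation of tissue is a known inducer of both classes.

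Short promoter stretches are shown for members in which a script found a control motif known for such genes, and each motif was found in a minority of the members with a window. RefSeq promoter windows (build GRCm38.p6) matched 32 of 41 members, with 43 windows, and the search used the 250 bases before each start site. Fosl1, Egr1, Egr3, Ier2, Myc, Hspa8, Hsp90aa1, Hsp90ab1 and Nfkbiz were not matched. Motifs were searched on both strands, and each stretch of 30 bases reads 5′ to 3′ on the strand of its gene, with the motif in capitals. The first 4 carry the heat shock element as a pair of repeats, GAANNTTC or TTCNNGAA, the fifth the endoplasmic reticulum stress element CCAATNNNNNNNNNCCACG, the next 3 the cyclic AMP response element TGACGTCA, and the last the CArG box bound by serum response factor.
Hspe1, chr1:55088053-55088082, plus strand: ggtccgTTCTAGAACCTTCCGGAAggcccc
Hspb1, chr5:135887801-135887830, plus strand: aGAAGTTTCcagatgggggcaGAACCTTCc
Hspa1a, chr17:34972242-34972271, minus strand: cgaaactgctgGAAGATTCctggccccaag
Hspa1b, chr17:34959324-34959353, minus strand: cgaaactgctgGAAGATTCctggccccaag
Hspa5, chr2:34772020-34772049, plus strand: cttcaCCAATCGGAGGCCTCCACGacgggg
Dusp1, chr17:26508597-26508626, minus strand: ggtagggcgggTGACGTCAccgcccggtca
Btg2, chr1:134079303-134079332, minus strand: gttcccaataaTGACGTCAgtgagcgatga
Ppp1r15a, chr7:45526269-45526298, minus strand: gagaccccgcctctccggTGACGTCAgcac
Zfp36, chr7:28379267-28379296, minus strand: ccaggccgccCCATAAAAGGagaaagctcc

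The heat shock element pair was found in 7 of 9 chaperones with a window (Dnaja1, Hspa1a, Hspa1b, Hspb1, Hspd1, Hspe1 and Hsph1), and in 8 of their 14 windows against 12.8% of all 32851 windows. Among the other members it was found in Fosl2, Jun and Egr2. The stretch of Hspe1 holds 3 overlapping pairs, which form the triple repeats TTCNNGAANNTTC and GAANNTTCNNGAA present in 0.466% of all windows. The same bases, read on the other strand, lie before Hspd1, whose nearest start site is 216 bases away from that of Hspe1, so both genes face away from a shared promoter. The 250 bases before Hspa1a and Hspa1b were identical at 247 positions. The stress element was found in Hspa5 and in 0.113% of all windows. The cyclic AMP element was found in 4 of 43 member windows (Btg2, Dusp1, Maff and Ppp1r15a), against 1.55% of all windows. The CArG box was found in 5 of 43 (Egr2 and Zfp36), against 1.47%, and 4 of these 5 windows belong to Egr2. A match describes these letters and is not evidence of binding. Bases further upstream were not searched, so a gene with no match may still hold the motif there.

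Array 3 stood apart from the others, with a correlation across probe sets of 0.923 and 0.927 with arrays 1 and 2, against 0.976 between arrays 1 and 2, and with a narrower spread of values (SD 1.84 against 2.08 and 2.06 log2). The 7 endothelial markers examined (Pecam1, Cdh5, Kdr, Tie1, Tek, Emcn and Erg) all lay above the filter level of 100, and 7 did so with the pooled spread, but only 2 passed without array 1 and 1 without array 2. Their summed linear signal was 14361, 12450 and 7244 in arrays 1, 2 and 3. The 14 macrophage markers ran the other way, with sums of 1668, 4103 and 6814, and all 14 were lowest in array 1. The part of these cell markers in any difference between arrays below was not tested, and in such bulk samples fewer cells of a type and less RNA per cell cannot be told apart.

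Of the 39 measured members, 29 lay above the level of 100 (6.64 on the log2 scale) that the study used to remove weakly detected probe sets. This compares with 41.6% of all named genes. A further 5 members lay below it, while 41.6% of all named genes did, and 5 were on neither side (limma, adjusted p under 0.05 over all probe sets, one-sided in each direction). The study itself kept probe sets with raw signal of at least 100 in 3 samples, without a test. It did so in GeneSpring, and whether that scale matches the deposited values, whose normalization is not stated, was not tested. Here the level lies close to the array medians of 6.50, 6.51 and 6.55 log2. At 100 or more in all 3 arrays, 31 members were above, with Nfkbiz and Hspb1 added, against 9547 of 19938 named genes. Under 100 in all 3 arrays lay 5 members, against 9038 named genes. The median of the members' mean log2 values was 7.89, against 6.67 over all named genes. By group, 3 of 8 AP-1 genes, 2 of 3 EGR genes, 15 of 18 other early response genes and 9 of 10 chaperones were above. Median values were 6.66 log2 for AP-1, 7.37 for EGR, 8.02 for other early response genes and 11.23 for chaperones. Probe sets differ in affinity, and no gene was tested against another. A value below the level is weak signal and does not show that a transcript was absent.

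**Figure D1:**
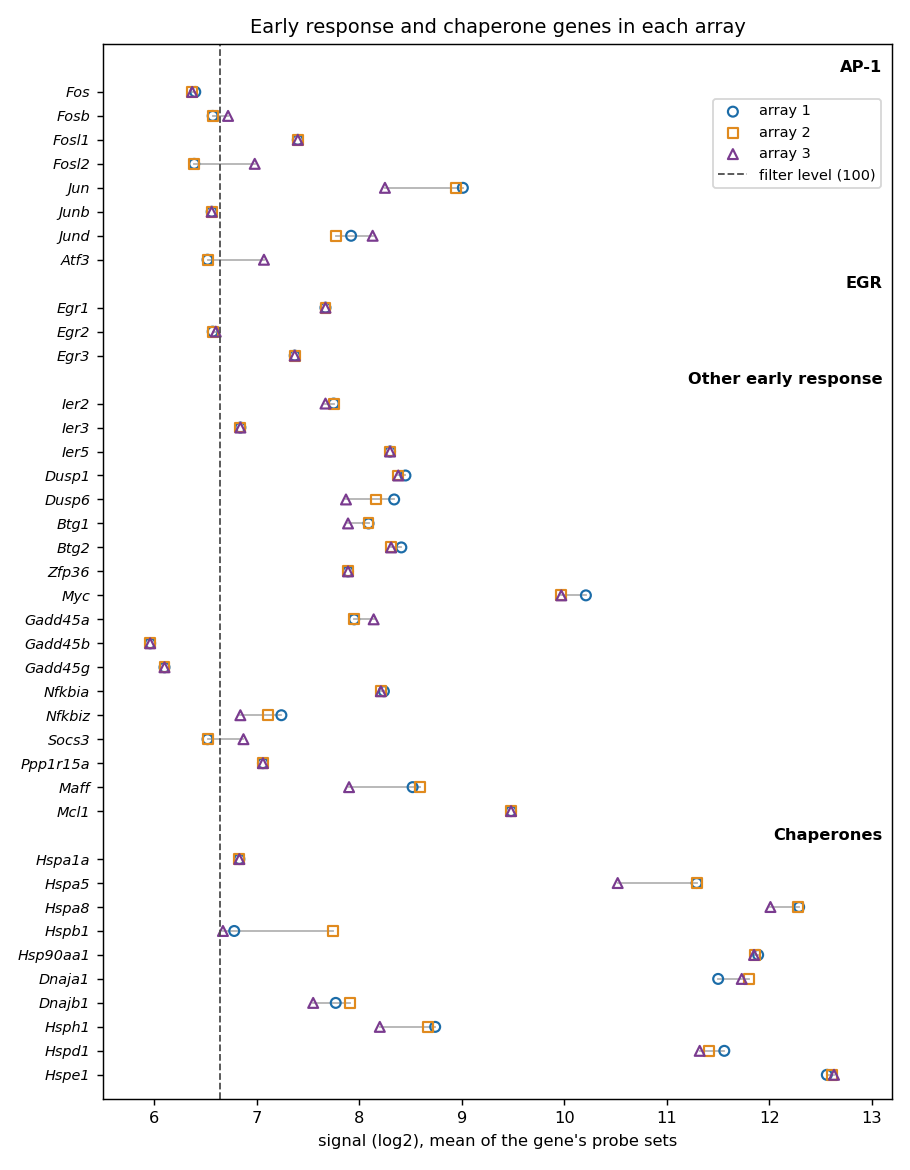
Log2 signal of each of the 39 measured members (rows, by group) in arrays 1, 2 and 3, with a grey line over the range and a dashed line at the filter level of 100. Fos, Junb, Egr2, Gadd45b and Gadd45g lie left of the line in all 3 arrays, 7 of 10 chaperones lie right of 8 on the log2 scale, and Hspb1 has the widest range.

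Calls close to the level rest on very small spreads in this table. Where a pair of arrays held equal values, as for Fos, Egr2, Dusp1 and Myc, the SD and p-value rest partly on that tie. Exactly equal values in all 3 arrays were found for 12 of 39 members, against 25.6% of all named genes, and for 9 of the 29 members above the level, against 26.2% of all genes above it. With 1 spread shared by every probe set (SD 0.491 log2), 26 members were above and 1 below, against 36.0% and 32.5% of all named genes. The calls of Fos, Junb, Egr2, Ier3, Gadd45g, Socs3, Ppp1r15a and Hspa1a were lost with that spread, and Hspb1 was then above.

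AP-1 can form as a dimer of a Jun protein with a Fos or ATF protein, and Jun, Jund and Fosl1 were its members above the level. Jun measured 9.01, 8.94 and 8.25 log2 in arrays 1, 2 and 3 (8.73 ± 0.42, SD, n = 3) and was above the level (adjusted p = 0.0109, limma). Array 3 held the lowest Jun value, and all 3 lay above 6.64. The call was lost without array 1 or without array 2, where the mean still exceeded the level by 1.95 and 1.99 log2. Jund, a Jun protein made more steadily than the others, measured 7.92, 7.77 and 8.13 log2 (7.94 ± 0.18) and was above (adjusted p = 0.00543, limma). It was lowest in array 2, and its call was lost without array 1, at 1.31 log2 over the level. Junb was at 6.56 log2 in every array, just below the level. That call was lost with median-centred and with quantile-normalized arrays and without array 2, with the mean 0.08 log2 under the level each time.

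The Fos partners lay close to the level. Fos, the classical immediate early gene, measured 6.40, 6.37 and 6.37 log2 (6.38 ± 0.02, SD, n = 3) and was below it (adjusted p = 0.00171, limma). Fosb measured 6.57, 6.57 and 6.72 log2 and Fosl2 measured 6.39, 6.39 and 6.98. Both exceeded the level in array 3 alone, neither passed in either direction (adjusted p below the level = 0.612 and 0.741, limma), and without array 3 both were below it. Fosl1 stood apart from these paralogs, with 7.40 log2 in every array, and was above. Atf3, a stress-induced partner of Jun, measured 6.52, 6.52 and 7.07 log2 (6.70 ± 0.32) and did not pass (adjusted p above = 0.811, limma). Fosb, Fosl2 and Atf3 were equal in arrays 1 and 2 and higher in array 3, as were Egr2, Gadd45a and Socs3 among the other members, and 37.9% of all named genes were highest in array 3. Without array 3, Atf3 averaged 0.12 log2 under the level and was called below it.

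EGR genes encode zinc finger factors that are switched on by MAP kinase signalling. Egr1 was at 7.67 log2 and Egr3 at 7.37 log2 in every array, and both were above the level. Equal values of this kind are common in the table and say nothing of how stable a gene is. Egr2, which also serves myelinating and myeloid cells, measured 6.57, 6.57 and 6.60 log2 (6.58 ± 0.02, SD, n = 3) and was below (adjusted p = 0.0192, limma), by 0.06 log2 only. Its call was lost on median-centred and on quantile-normalized arrays and without array 1 or array 2.

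Of the genes that end an early response, the phosphatases, Zfp36 and Nfkbia were above the level. Dusp1, a nuclear phosphatase of MAP kinases, measured 8.45, 8.38 and 8.38 log2 (8.40 ± 0.04, SD, n = 3; adjusted p = 0.00017, limma). Dusp6, a cytoplasmic phosphatase specific for ERK, measured 8.34, 8.16 and 7.87 log2 (8.13 ± 0.24; adjusted p = 0.00695, limma). Both were highest in array 1, and the Dusp6 call was lost without array 2, at 1.47 log2 over the level. Zfp36, which binds AU-rich RNAs and speeds their decay, was at 7.89 log2 in every array. Nfkbia, the inhibitor that holds NF-kappa-B in the cytoplasm, was at 8.24, 8.21 and 8.21 log2. Nfkbiz, a nuclear relative induced by inflammatory signals, was lowest in array 3, with 7.24, 7.11 and 6.84 log2 (7.07 ± 0.21), and did not pass (adjusted p = 0.0602, limma).

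Socs3, the feedback inhibitor of cytokine receptors, was the member whose call depended on the probe set. Its first probe set measured 6.20, 6.20 and 6.92 log2 and was on neither side, while its second was at 6.83 in every array and was above. The mean of both probe sets, 6.63 ± 0.21 log2 (SD, n = 3), was not above when tested itself. Ppp1r15a, which directs a phosphatase to the translation factor eIF2 after stress, was above at 7.06 log2 in every array.

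Growth-promoting and anti-proliferative members were both above the level. Myc, the growth-promoting transcription factor, measured 10.21, 9.97 and 9.97 log2 (10.05 ± 0.14, SD, n = 3; adjusted p = 0.00052, limma). Mcl1, a short-lived survival protein of the Bcl2 family, was at 9.48 log2 in every array. The anti-proliferative genes Btg1 (8.09, 8.09 and 7.89 log2) and Btg2 (8.41, 8.31 and 8.31 log2) were above as well, with ranges of 0.19 and 0.10 log2. The Gadd45 genes, growth arrest and DNA damage sensors that activate stress kinases, parted from each other. Gadd45a was above at 7.95, 7.95 and 8.14 log2 (8.01 ± 0.11), whereas Gadd45b at 5.96 log2 and Gadd45g at 6.10 log2 in every array were below. Gadd45b was the 1 member below the level also with the pooled spread.

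The remaining early response genes were above the level. Ier2 measured 7.75, 7.75 and 7.67 log2 and Ier5 8.30 log2 in every array. Ier3, a stress-inducible survival regulator, was at 6.84 log2 in every array and 0.20 log2 over the level. Maff, a small Maf factor that lacks an activation domain, measured 8.52, 8.59 and 7.90 log2 (8.34 ± 0.38, SD, n = 3; adjusted p = 0.0135, limma). Like Jun, it was lowest in array 3, and its call was lost without array 1 or array 2, at 1.60 and 1.57 log2 over the level.

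Of 10 measured chaperones, 9 were above the level and Hspb1 did not pass. Hspa8, the constitutive cytosolic Hsp70, averaged 12.29, 12.28 and 12.01 log2 over 3 probe sets in arrays 1, 2 and 3 (12.19 ± 0.16, SD, n = 3). Hsp90aa1, the stress-inducible cytosolic Hsp90, averaged 11.89, 11.86 and 11.85 log2 over 3 probe sets (11.87 ± 0.02). Dnaja1, an Hsp40 that feeds clients to Hsp70, averaged 11.50, 11.80 and 11.73 log2 over its probe sets. The mitochondrial folding chamber was represented by both of its parts, with the chaperonin Hspd1 at 11.56, 11.41 and 11.32 log2 and its lid Hspe1 at 12.56, 12.61 and 12.63 log2. All 5 genes were above the level in each of their probe sets (largest adjusted p = 0.00108, for a probe set of Dnaja1, limma), and the ranges of Hsp90aa1 and Hspe1 between arrays, 0.04 and 0.07 log2, were small.

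Several of these genes have near-identical processed copies in the mouse genome, and the annotation does not say which copy a probe set reads. Their probe sets differed in level, so that values of single copies are uncertain. Both probe sets of Dnaja1 averaged 10.49 and 12.86 log2, and both of Hspd1 averaged 10.93 and 11.93 log2. For Hspa8, a pair of probe sets was lowest in array 3 (12.59, 12.59 and 12.13 log2, and 12.87, 12.83 and 12.40 log2), while the third was highest there (11.40, 11.42 and 11.52 log2).

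**Figure D2:**
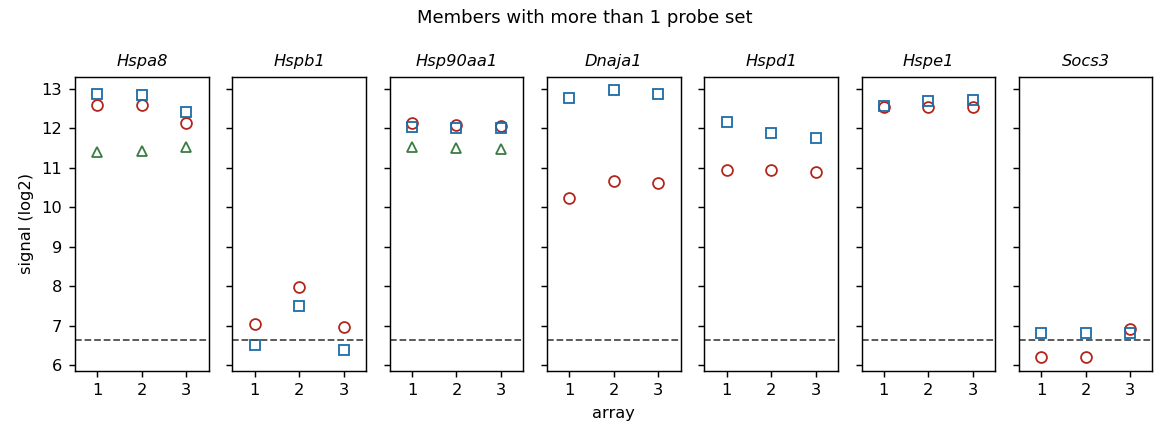
Log2 signal of every single-symbol probe set (marker shapes) in arrays 1, 2 and 3 for the 7 members with more than 1 probe set, with a dashed line at the filter level. Both Hspb1 probe sets are highest in array 2 (7.98 and 7.51 log2), and the probe sets of Dnaja1 lie far apart in level.

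The remaining chaperones have a single probe set each, apart from Hspb1. Hspa1a, an inducible Hsp70 gene, was at 6.83 log2 in every array and 0.18 log2 over the level. Its promoter stretch is the same as that of Hspa1b, as printed above, and a further probe set that the annotation gives to both genes was not used. Dnajb1, the inducible Hsp40, measured 7.77, 7.91 and 7.55 log2 (7.74 ± 0.18, SD, n = 3; adjusted p = 0.00733, limma), and Hsph1, the Hsp110 exchange factor, 8.74, 8.67 and 8.20 log2 (8.54 ± 0.29; adjusted p = 0.0066, limma). Both were lowest in array 3. Their calls were lost without array 1 or array 2, with means 1.08 and 1.01 log2 over the level for Dnajb1 and 1.79 and 1.82 log2 for Hsph1. Hspa5, the Hsp70 of the endoplasmic reticulum, measured 11.29, 11.29 and 10.52 log2 (11.04 ± 0.45) and was above (adjusted p = 0.00291, limma).

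Hspb1, a small heat shock protein that protects actin and binds unfolded clients, was the member that moved most between arrays. Its probe sets measured 7.04, 7.98 and 6.96 log2, and 6.51, 7.51 and 6.38 log2, in arrays 1, 2 and 3. Array 2 was the high one in both, by ranges of 2.02-fold and 2.19-fold, and neither probe set passed the test against the level (adjusted p above = 0.155 and 0.741, limma). The promoter stretch of Hspb1 printed above holds a pair of separate heat shock elements. Among the other chaperones with such an element, the ranges of Dnaja1, Hsph1, Hspd1, Hspe1 and Hspa1a were 0.30, 0.54, 0.24, 0.07 and 0.00 log2. Hspa1a and a probe set of Hspe1 were equal in every array, and such ties say nothing of how stable a gene is. Arrays are single pools, and neither the move of Hspb1 nor its difference from these genes was tested.

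Differences between arrays were limited by ties in the deposited values, whose origin is not stated. At least a pair of arrays held equal values for 26 of 39 members, against 69.6% of all named genes, and the ranges below include these ties. Hspb1 was the only 1 of 39 members whose highest array exceeded its lowest by more than 1 log2 (2-fold), against 9.06% of all named genes and 8.05% of those above the level. No member above the level did so. The median range of the members was 0.10 log2, against 0.22 log2 over all named genes. Among members above the level it was also 0.10 log2, against 0.19 log2 over all genes above it. The largest member ranges after Hspb1 were 0.77 log2 for Hspa5, 0.76 for Jun and 0.69 for Maff. The marker lists moved more. Of 14 macrophage markers 9 exceeded 1 log2, with a median range of 1.62 log2, and of 7 endothelial markers 5 did, with a median range of 1.09 log2.

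**Figure D3:**
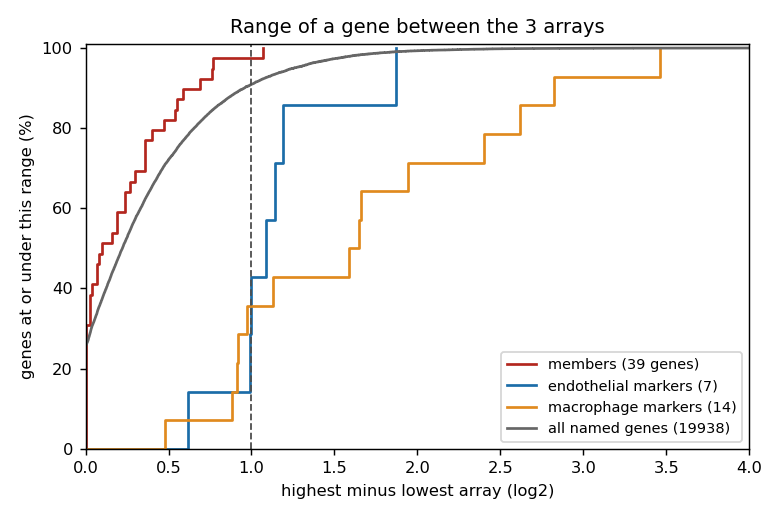
Percentage of genes (vertical axis) whose highest array exceeds their lowest by no more than the log2 range on the horizontal axis, for the members, 7 endothelial markers, 14 macrophage markers and all 19938 named genes, with a dashed line at 1 log2. The curve of the members lies left of all others, and 1 of 39 members passes the line.

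Array 3 was the lowest for 13 of 39 members and the highest for 8, against 28.2% and 37.9% of all named genes. Among the 29 members above the level the counts were 11 and 4, against 48.8% and 13.8% of all genes above it. Array 1 was highest for 12 members and array 2 for 4 (Maff, Hspb1, Dnaja1 and Dnajb1), against 15.9% and 6.65% of all named genes, and for 10 and 3 of the members above the level, against 28.1% and 10.4% of all genes above it. For the members above the level, the counts highest in arrays 1, 2 and 3 are near the shares of all genes above it. Their count lowest in array 3 lies under its share. Array 3 was lowest for 7 of 10 chaperones and highest for Hspe1 only, with median deviations from a gene's mean of 0.03, 0.11 and -0.14 log2 in arrays 1, 2 and 3. For AP-1 genes it was highest for 4 of 8 (Fosb, Fosl2, Jund and Atf3) and lowest for Jun. The groups were not tested against each other. In array 3 the endothelial markers deviated by a median of -0.65 log2 and the macrophage markers by 0.60 log2. The members' counts of highest arrays depended on ties. Of the 39 members, 12 were equal in all 3 arrays and 3 more were tied for highest, and a small shift between arrays parts such values. The array medians were 6.50, 6.51 and 6.55 log2, and after centring on them 28 members were highest in array 1. After quantile normalization 26 were highest in array 3.

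**Figure D4:**
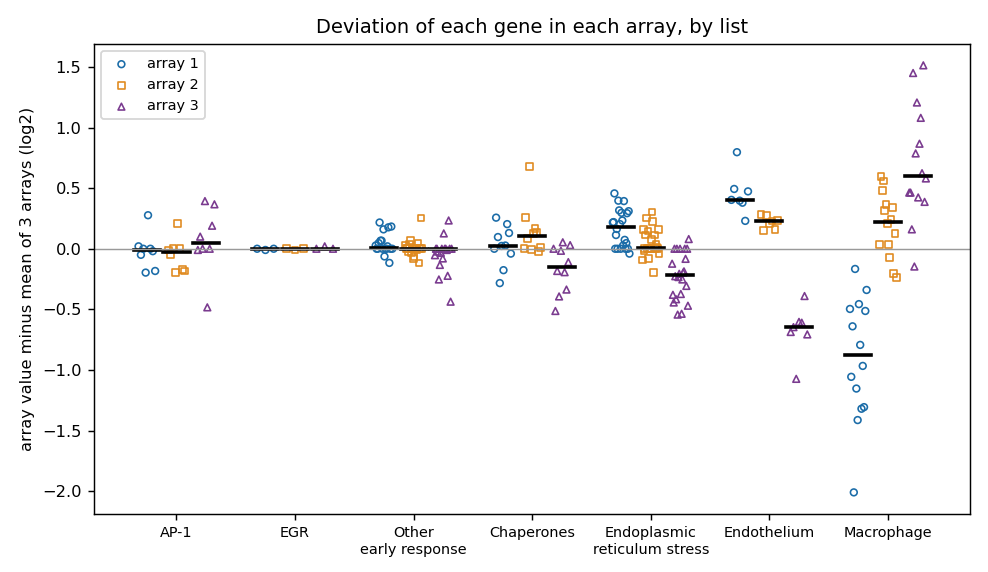
Deviation of each array from a gene's own 3-array mean (log2, vertical axis) for the genes of 7 lists, with a black bar at the median of each list and array. Medians of the member groups lie between -0.14 and 0.11, while endothelial markers are low in array 3 (median -0.65) and macrophage markers are low in array 1 (median -0.88).

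Further genes of the same programs were measured from lists chosen with the members. Of 24 further early response genes, 16 exceeded the level and 5 were under it (11 and 1 with the pooled spread), and equal values in all 3 arrays were found for 11. Among the orphan nuclear receptors, Nr4a1 was below at 6.35 log2 in every array, Nr4a2 was above at 6.89 log2, and Nr4a3 was below at 4.62, 4.62 and 4.63 log2. Egr4 was below at 6.43, 6.43 and 6.45 log2. With the pooled spread Nr4a3 stayed below the level, while Nr4a1, Nr4a2 and Egr4 were on neither side.

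Of 31 measured heat shock regulators and cochaperones 28 were above the level and 1 was below (26 and 0 with the pooled spread). Without array 1 there were 21 above, and without array 2 there were 20. Hsf1 was not analysed here, and Hsf2, a related heat shock factor, was above at 7.26, 7.11 and 7.12 log2. With the pooled spread Hsf2 and Hspa4l were on neither side. Hspa4, an exchange factor related to Hsp70, was above at 10.81, 10.81 and 10.61 log2, and Hspa4l at 6.92 log2 in every array, while Hspa2, an Hsp70 of the testis, did not pass at 6.84, 6.84 and 7.51 log2. Of 22 genes of endoplasmic reticulum stress, the response that includes Hspa5, 17 were above and 1 below, and 10 were above without array 1 or without array 2. Atf4, its translationally controlled activator, measured 8.56, 8.25 and 8.22 log2 and Atf6 7.88, 7.82 and 7.28 log2, and both were above, while Xbp1 (8.04, 7.57 and 7.14 log2) and Ern1 (6.65 log2 in every array) did not pass. Array 3 was lowest for 15 of these 22 genes, against 28.2% of all named genes and 48.8% of those above the level. This count rests on the scale of the deposited values.

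Of 15 measured kinases and factors upstream of the early response 11 were above and none below (10 and 0 with the pooled spread), and 7 were above without array 1 or without array 2. All these lists are read against the 41.6% of named genes above the level. Srf, which binds the CArG box, measured 6.97, 6.97 and 6.15 log2 and did not pass, being under the level in array 3. Of its ETS partners, Elk1 was above at 8.09 log2 in every array, Elk3 at 10.48, 10.31 and 9.63 log2, and Elk4 at 9.10, 8.12 and 7.61 log2 did not pass. For marker lists of other cells, 2 of 14 macrophage genes (9 with the pooled spread), 4 of 7 red cell genes (2), 4 of 7 stromal genes (2), 3 of 5 nephron progenitor genes (2), 1 of 6 ureteric bud genes (1) and 0 of 6 neutrophil and mast cell genes (1) were above the level, where 41.6% of all named genes were (36.0% with the pooled spread). Without array 2 the counts were 0 macrophage, 2 red cell, 2 stromal and 1 nephron progenitor genes. Without array 1 there were 2 stromal genes, and without array 3 there were 0 macrophage and 2 ureteric bud genes.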

How the data were processed

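Log2 values of 35557 probe sets (Affymetrix Mouse Gene ST array) were deposited by the authors for 3 arrays, 1 per pool, after 1 round of amplification. Expression Console is the tool in the submitters' notes; how these log2 values were normalized is not stated there. In the platform annotation 21789 probe sets carried 1 gene symbol (21698 found in RefSeq), 1621 several and 12147 none here. Members had 48 probe sets, 1 each except for 7 genes, whose values were averaged for display.

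An intercept-only limma 3.58.1 fit (R 4.3.3, eBayes) set each mean against the low-signal level of 100, in both directions separately, at a Benjamini-Hochberg adjusted p of 0.05 across the table. Genes counted as above if 1 probe set passed and as below only if every one did. For equal values the p-value rests on the prior spread alone and is not printed. Between arrays values were described, not tested. The number of arrays limits the precision. Members and lists were chosen with earlier results of these data known. Every member is named, and of the program lists the first 4 measured genes in list order, plus Hsf1, which had no probe set of its own. The fit was checked on simulated data with normal noise around set means, which does not test the calls that rest on equal values. Alternatives varied the level, spread, array scale, probe set rule, low-value filter and arrays used. Summaries used Python 3.11.15 with pandas 2.3.3.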

Additional observations from a re-analysis of the deposited data

How the results depend on the processing

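At a level of 50, 14235 named genes were above and 2613 below, and at 200, 3221 and 13280. Only probe sets averaging at least 50 gave 3408 below. Leaving out 1 array gave 5051 to 8023 above and 5163 to 9085 below, lowest without array 2. The 29 members above numbered 16 at a level of 200, and 24 to 29 with an array left out. They numbered 31 at 100 or more in all 3 arrays, without a test. The 5 members below numbered 0 at 50, 15 at 200, 1 with the pooled spread, 3 with median-centred and 3 with quantile-normalized arrays, and 3 to 8 with an array left out. In the companion lists, 93 genes were above, 40 at 200 and 56 to 84 with an array left out. Hspb1, the 1 member past 2-fold, left 0 to 1 with an array left out (0 without array 2 or 3). The 12 members highest in array 1 became 28 on median-centred arrays (13 to 18 with an array left out), the 4 highest in array 2 became 5 to 14 with an array left out, and the 8 highest in array 3 became 26 on quantile-normalized arrays (8 to 9 with an array left out). Equal values between arrays enter these counts of highest arrays, as given above. The median of 7.89 log2 became 7.90 on quantile-normalized arrays and 7.85 to 7.89 with an array left out.

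The mean minus the level turned positive at 50 for Fos (0.74), Fosb (0.97), Fosl2 (0.94), Junb (0.92), Egr2 (0.94), Gadd45b (0.32), Gadd45g (0.46) and Socs3 (0.99), and negative at 200 for Fosl1 (-0.25), Atf3 (-0.94), Egr3 (-0.28), Ier3 (-0.80), Nfkbiz (-0.58), Ppp1r15a (-0.58) and Hspa1a (-0.82), by construction. Socs3 was 0.01 on quantile-normalized arrays and -0.13 to 0.05 with an array left out, and Atf3 -0.12 to 0.15. The mean-dependent prior kept the calls of all 39 members. Nfkbiz was above on quantile-normalized arrays. The cause of the other shifts was not tested. No paired analysis was possible because the series holds a single group.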
